A study of Mus musculus with 18 samples.

Results

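Long noncoding RNAs were examined in the ventricles of 18 male C57BL/6 mice, 17 weeks of age, that had received an adeno-associated virus by tail vein. 2810055G20Rik, Malat1, Neat1, Meg3, H19 and Miat were taken by name from the deposited tables, which makes 6 genes of 23457 in the count table and of 23396 in the FPKM table. 2810055G20Rik was chosen by its log2 fold change and FDR between PLCb1b and blank hearts in these counts, so its values in that contrast are a description. The other 5 are long noncoding RNAs widely studied in heart or in other tissues.

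Each vector was given to 6 mice. rAAV6-PLCb1b carried FLAG-tagged phospholipase C beta 1b, a splice variant of an enzyme that is activated by Gq proteins and cleaves a membrane lipid into second messengers. rAAV6-PLCb1a carried the other splice variant, described by the study as inactive in heart, and rAAV6-blank carried a promoter and no protein. The blank mice thus carried virus too. In whole ventricle, with all of its cell types, fewer cells of a type and less RNA per cell cannot be told apart. RNA had been depleted of ribosomal RNA rather than selected for poly(A) tails, a preparation that keeps nuclear and unspliced transcripts.

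Long noncoding RNAs act without being translated, many of them inside the nucleus. Malat1 is a nuclear RNA found in speckles, which store splicing factors, and Neat1 is the scaffold of paraspeckles. Meg3 and H19 are imprinted, each expressed from the maternal chromosome in a cluster of imprinted genes, and H19 is abundant in the fetus and falls after birth. Miat, named for its association with myocardial infarction, is a nuclear RNA that binds splicing factors. 2810055G20Rik is listed as Mir99ahg in RefSeq and in GENCODE M21. It is the host of a cluster of 3 microRNAs, among them a member of the let-7 family.

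The sequences below show what lies in that host gene. The first 3 are mature microRNAs of the 2810055G20Rik locus and the last is cut from H19. Capitals mark the seed, bases 2 to 8, with which a microRNA pairs with its targets. All come from RefSeq (GRCm38.p6).
miR-99a-5p, chr16:77598940-77598961, plus strand: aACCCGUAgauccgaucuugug
let-7c-5p, chr16:77599672-77599693, plus strand: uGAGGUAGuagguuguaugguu
miR-125b-5p, chr16:77646279-77646300, plus strand: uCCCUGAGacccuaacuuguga
miR-675-5p, chr7:142577112-142577133, minus strand: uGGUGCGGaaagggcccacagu

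No 2 of these microRNAs share a seed. The microRNA genes of the 2810055G20Rik locus lie outside the part of the gene that was counted. The counted model runs from 77329328 to 77558428 on the plus strand of chromosome 16 (mm10) in 5 exons with 3151 bases. Mir99a begins 40508 bases past its end, Mirlet7c-1 41229 bases past it and Mir125b-2 87845 bases past it, each within introns of 4 GENCODE transcripts of Mir99ahg. The whole locus in GENCODE has 17 transcripts from 77236317 to 77773427, and the counted model holds 22.0% of their exon bases.

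**Figure D1:**
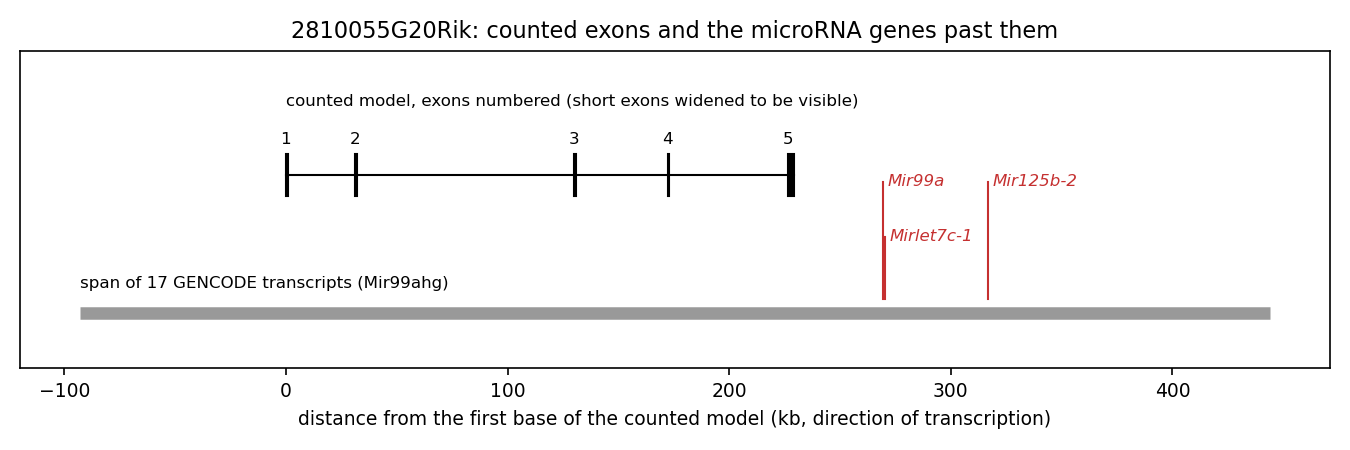
The 5 counted exons of 2810055G20Rik (black, numbered) and the 3 microRNA genes (red), by distance in kb from the first base of the counted model. The grey bar is the span of 17 GENCODE transcripts. All 3 microRNA genes lie past the last counted exon.

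Most of the counted sequence is the last exon, with 2507 of 3151 bases, and 1 of 17 GENCODE transcripts holds it. Exons 2 to 4 are more widely shared, exon 2 and exon 4 by 9 transcripts each and exon 3 by 4. They are printed here as the spliced part of the counted RNA, with exon 3 in capitals.
2810055G20Rik exons 2 to 4, bases 352 to 644 of the spliced model, GRCm38: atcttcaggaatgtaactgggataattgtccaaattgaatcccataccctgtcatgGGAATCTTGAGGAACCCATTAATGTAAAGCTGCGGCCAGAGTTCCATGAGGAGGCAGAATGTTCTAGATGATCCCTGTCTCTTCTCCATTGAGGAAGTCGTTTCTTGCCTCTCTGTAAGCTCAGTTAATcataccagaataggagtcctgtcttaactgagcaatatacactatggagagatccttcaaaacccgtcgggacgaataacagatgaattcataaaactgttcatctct

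Few reads fell on the microRNA genes themselves. Mir99a had 11 counts over the 6 blank hearts, 25 over the PLCb1a hearts and 24 over the PLCb1b hearts. Mirlet7c-1 had 31, 42 and 29 counts in the same order, and Mir125b-2 had 1, 3 and 0. Reads on these genes come from long fragments over the hairpin and are no measure of the mature microRNA. With all genes kept in edgeR's model, without a filter on low counts, Mir99a had an FDR (the p-value after Benjamini-Hochberg adjustment over all genes) of 0.741 between PLCb1b and blank hearts and 0.667 between PLCb1a and blank hearts. Mir675 lies in the exon of H19, and Mir770 and Mir1906-1 lie in exons of Meg3, on the same strand. All 3 rows were 0 in all 18 hearts. Reads over such an overlap belong to no gene in the union mode of HTSeq, so those zeros do not show absence.

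Depth was 13246339 to 24155465 counts per heart. Of these, 53.5 to 57.5% fell on mt-Rnr2, a ribosomal RNA of mitochondria, and 3908354 to 7591558 fell on nuclear genes. No 2 hearts of the 153 pairs held identical counts. The targeted gene followed the labels, with Plcb1 at 5.43 to 6.89 CPM (counts scaled to a common depth of 1e6 by TMM) in blank hearts, 17.8 to 29.3 in PLCb1a hearts and 23.2 to 70.0 in PLCb1b hearts. The cardiomyocyte marker Myh6 averaged 8443 CPM in blank hearts, and all 7 cardiomyocyte markers were expressed.

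Expression per length of transcript, as FPKM (fragments scaled for transcript length and depth), put the genes far apart. Malat1 averaged 1113 FPKM over the 18 hearts, the highest of 1954 annotated long noncoding genes, and Neat1 80.5 FPKM, the fourth of them. H19 averaged 2.54 FPKM, 2810055G20Rik 2.16 FPKM and Meg3 1.31 FPKM, at ranks 75, 90 and 133. Miat averaged 0.0049 FPKM at rank 1014. By level, then, Malat1 and Neat1 were abundant, while H19, 2810055G20Rik and Meg3 were low and Miat was near 0. Long noncoding genes together took 2.38 to 2.80% of nuclear counts, of which Malat1 alone was 79.7 to 82.7%.

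**Figure D2:**
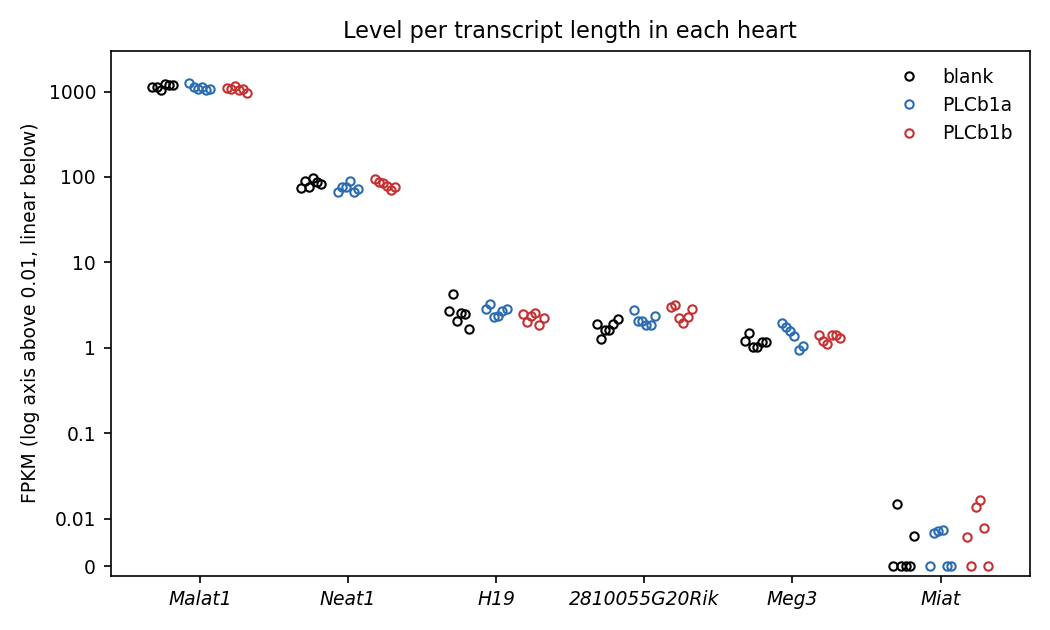
FPKM of each gene in each heart, with 6 hearts of each vector, on an axis that is logarithmic above 0.01 and linear below. Malat1 lay above Neat1 in all 18 hearts and Neat1 above the other 4 genes, whereas the hearts of H19, 2810055G20Rik and Meg3 overlapped.

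The order of neighbours was not equally clear. Malat1 stood 13.8 times above Neat1 in mean FPKM and Neat1 31.7 times above H19, with no overlap between hearts. In FPKM, H19 lay above 2810055G20Rik in 13 of 18 hearts. In blank hearts that was 5 of 6, in PLCb1a hearts 6 of 6 and in PLCb1b hearts 2 of 6. Nothing is read from the difference between groups, since 2810055G20Rik was named for being higher in PLCb1b than in blank hearts. 2810055G20Rik lay above Meg3 in 17 of 18 hearts, although the ranges overlapped, and Meg3 above Miat in 18 of 18.

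Differences between vectors were tested with edgeR's quasi-likelihood test in a single model of 18 hearts and 12281 genes, with calls at an FDR below 0.1. Between PLCb1b and blank hearts 12 genes were called, 0.0977% of those tested, with 9 higher (0.0733%) and 3 lower (0.0244%). 2810055G20Rik was the only annotated long noncoding gene among them, of 321 tested, and was named for that call. Between PLCb1a and blank hearts 17 genes were called (0.138%), with 12 higher (0.0977%) and 5 lower (0.0407%), and between PLCb1b and PLCb1a hearts 0 (0%), where 543 genes had an unadjusted p below 0.05. Of Malat1, Neat1, Meg3 and H19, none was called in any of the 3 contrasts, and Miat was too low to be tested.

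The level of 2810055G20Rik was lowest in blank hearts. In counts the 6 blank hearts ran from 94 to 155 with a median of 123. PLCb1a hearts ran from 107 to 258 (median 158) and PLCb1b hearts from 127 to 228 (median 175.5). After scaling for depth, blank hearts ran from 5.42 to 7.34 CPM with a median of 7.26, PLCb1a hearts from 7.42 to 10.4 (median 8.68) and PLCb1b hearts from 8.10 to 10.97 (median 9.42). All 6 PLCb1b hearts and all 6 PLCb1a hearts therefore lay above all blank hearts. Such a lack of overlap was seen for 0.48% of genes between PLCb1b and blank hearts and for 0.594% between PLCb1a and blank hearts, and nothing is read from it for the gene named by this contrast.

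In FPKM the hearts of different groups overlapped. Blank hearts had 1.26 to 2.15 FPKM of 2810055G20Rik with a median of 1.76, PLCb1a hearts 1.83 to 2.77 (median 2.06) and PLCb1b hearts 1.95 to 3.15 (median 2.56). Of the PLCb1b hearts 5 of 6 lay above all blank hearts, and of the PLCb1a hearts 2 of 6. Heart 10 of the PLCb1b group lay below blank heart 36.

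In the edgeR model 2810055G20Rik was higher by 0.45 on the log2 scale in PLCb1b than in blank hearts (standard error 0.09, 95% interval 0.27 to 0.63). It was higher by 0.35 in PLCb1a than in blank hearts (standard error 0.09, FDR 0.163), a contrast that shares the blank hearts with the first. With limma on log2(FPKM + 1) the latter was 0.21 (FDR 0.705). Between PLCb1b and PLCb1a hearts the difference was 0.10 with a 95% interval from -0.08 to 0.27. Without blank heart 30, the lowest of the 18, the difference between PLCb1b and blank hearts was 0.39. With blank heart 34 or PLCb1b heart 4, 6 or 17 left out, the call was lost, with FDR from 0.102 to 0.135. With limma on FPKM it was lost as well.

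**Figure D3:**
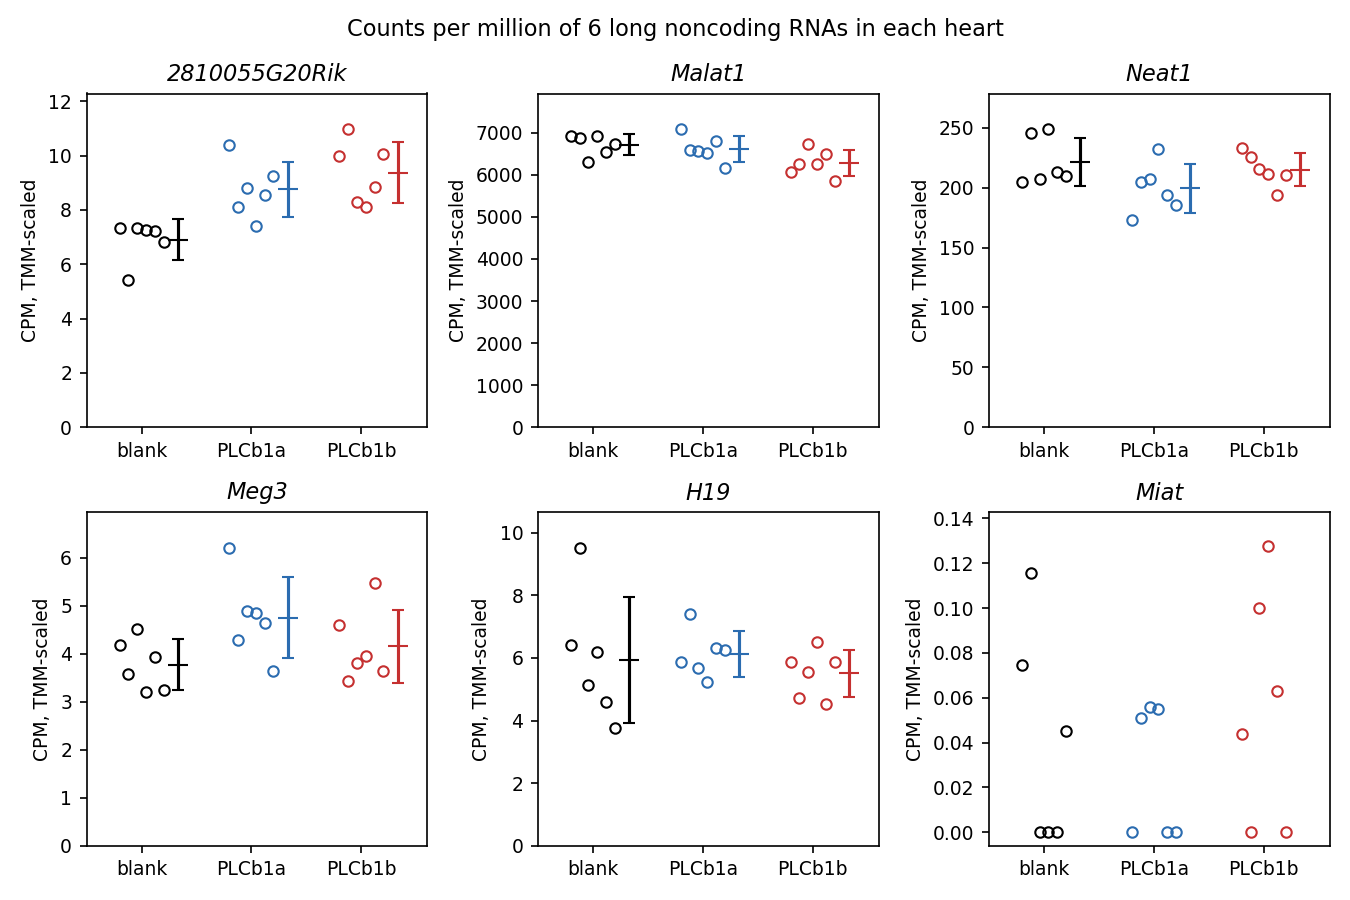
CPM of the 6 genes in each heart (open circles, 6 for each vector), with the mean and SD beside them except for Miat. The 2810055G20Rik circles of blank hearts lie below those of both other groups, and the other panels overlap between groups.

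Malat1 differed little between vectors. Blank hearts ran from 6312 to 6930 CPM with a median of 6807, PLCb1a hearts from 6167 to 7086 (median 6574) and PLCb1b hearts from 5852 to 6727 (median 6255). Of the 6 PLCb1b hearts 4 lay below all blank hearts, and the groups overlapped. The log2 difference was -0.10 (standard error 0.04, FDR 0.542) between PLCb1b and blank hearts, -0.02 between PLCb1a and blank hearts (FDR 0.914) and -0.08 between PLCb1b and PLCb1a hearts. The 95% interval of the first ran from -0.17 to -0.02, before any adjustment for the number of genes tested.

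Neat1 was likewise close between groups. It ran from 205 to 249 CPM in blank hearts (median 211), from 173 to 232 in PLCb1a hearts (median 199) and from 194 to 234 in PLCb1b hearts (median 214). Of the PLCb1a hearts 4 of 6 lay below all blank hearts. The log2 difference was -0.04 (standard error 0.07, FDR 0.920) between PLCb1b and blank hearts and -0.15 (standard error 0.07, FDR 0.519) between PLCb1a and blank hearts. Between PLCb1b and PLCb1a hearts it was 0.11 with a 95% interval from -0.03 to 0.25.

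Malat1 and Neat1 are neighbours on chromosome 19, 39631 bases apart in the counted models. The shared end of these RNAs is printed because it shows which part of Neat1 was counted. Both long transcripts carry near their 3′ end U-rich runs, written with T here, and a run of A. Together these form a triple helix in place of a poly(A) tail, and the printed stretches need not hold all of it. Capitals mark the 16 bases that both hold and the A-rich tract of each.
Malat1, chr19:5795974-5796043, minus strand, GRCm38: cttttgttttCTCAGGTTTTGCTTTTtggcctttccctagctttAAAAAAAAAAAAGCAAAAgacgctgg
Neat1, chr19:5824708-5824776, minus strand, GRCm38: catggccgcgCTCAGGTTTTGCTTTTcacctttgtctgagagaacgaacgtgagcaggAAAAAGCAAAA

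The Malat1 stretch lies in the counted model. The Neat1 stretch does not, since the counted model of Neat1 holds 3177 bases at the 5′ end of the gene, against 20771 bases in the longest GENCODE transcript. The short and the long Neat1 RNA share that 5′ part, so their counts cannot be told apart here. Counts of Malat1 per count of Neat1 averaged 30.5 ± 2.34 in blank hearts, 33.5 ± 4.32 in PLCb1a hearts and 29.3 ± 2.72 in PLCb1b hearts (mean ± SD, n = 6), ranges that overlapped.

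Meg3 was higher in some PLCb1a hearts. Blank hearts ran from 3.20 to 4.51 CPM with a median of 3.75, PLCb1a hearts from 3.64 to 6.20 (median 4.74) and PLCb1b hearts from 3.44 to 5.46 (median 3.88). Of the PLCb1a hearts 4 of 6 lay above all blank hearts, whose values rest on 56 to 84 counts each. The log2 difference was 0.37 between PLCb1a and blank hearts (standard error 0.12, FDR 0.322) and 0.15 between PLCb1b and blank hearts (standard error 0.13, FDR 0.830). In FPKM 3 of the 6 PLCb1a hearts lay above all blank hearts and 1 below all of them, and limma on log2(FPKM + 1) put the difference between PLCb1a and blank hearts at 0.15 (FDR 0.754). Between PLCb1b and PLCb1a hearts the edgeR value was -0.21 with a 95% interval from -0.45 to 0.03. Meg3 in counts and Meg3 in FPKM varied together only in part over hearts, with r = 0.42 after removal of group means.

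H19 varied most among blank hearts. They ran from 3.78 to 9.52 CPM with a median of 5.66, with the highest value in heart 30. PLCb1a hearts ran from 5.22 to 7.40 (median 6.07) and PLCb1b hearts from 4.52 to 6.50 (median 5.71), both inside the blank range. The log2 difference was -0.09 between PLCb1b and blank hearts (standard error 0.18, 95% interval -0.46 to 0.28, FDR 0.936) and 0.06 between PLCb1a and blank hearts (standard error 0.17, FDR 0.951). Without blank heart 30 the first turned to 0.10. The biological coefficient of variation of H19 was 0.157, against 0.0723 over all genes and 0.0534 for Malat1.

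Miat had 0 to 2 counts in each heart, with 4 counts in all over the blank hearts, 3 over the PLCb1a hearts and 6 over the PLCb1b hearts. It was at 0 in 8 of 18 hearts, which at their depth allows a level of up to 0.395 to 0.768 CPM of nuclear counts (3 counts in a heart), for counting error only. A difference between vectors was not detectable at this depth. A list of 4 splicing factors was read beside Miat (Qk, Sf1, Celf1 and Celf2), which need not hold all that bind it. All 4 were expressed, and 0 of the 4 were called in any contrast. Over all genes at most 0.138% were called in a contrast, so nothing is read from this for 4 genes. Sf1 had the lowest p among them, with a log2 difference of 0.07 (FDR 0.856) between PLCb1b and blank hearts. Between PLCb1a and blank hearts Sf1 stood at 0.12 (standard error 0.07, FDR 0.649).

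**Figure D4:**
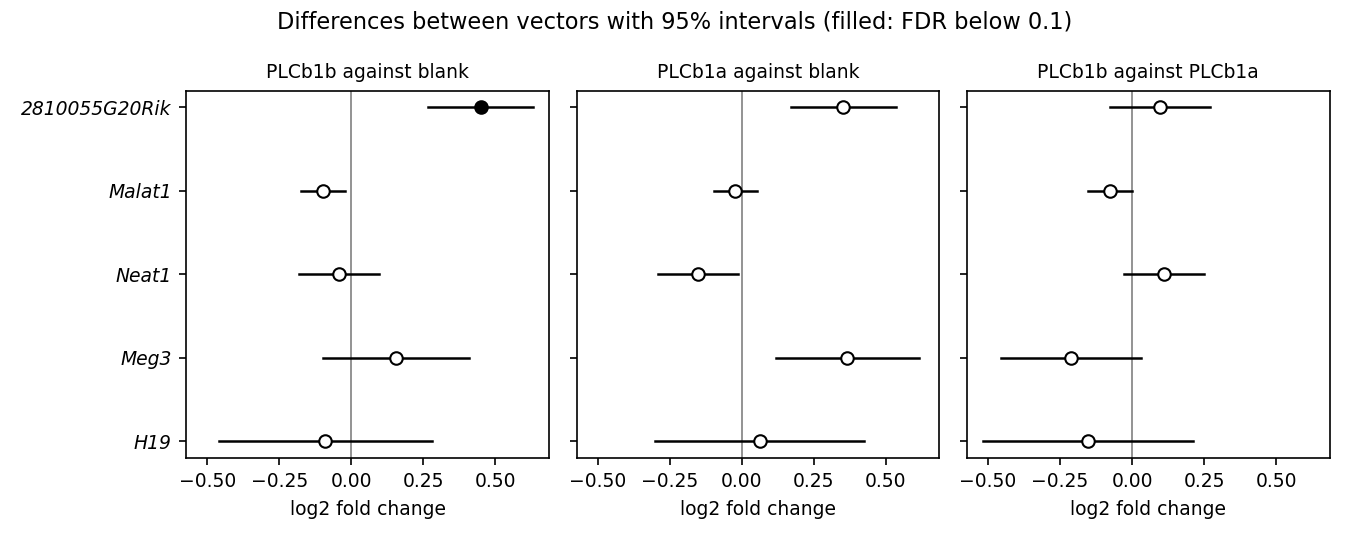
Log2 fold change with its 95% interval for the 5 genes tested, in the 3 contrasts of edgeR's model. A filled circle marks a gene called at an FDR below 0.1, which was only 2810055G20Rik between PLCb1b and blank hearts, the contrast that named it.

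The annotated long noncoding genes as a class were examined next. Of 1955 in the count table, 321 were tested. Their median log2 difference was -0.02 between PLCb1b and blank hearts, 0.02 between PLCb1a and blank hearts and -0.04 between PLCb1b and PLCb1a hearts, beside -0.00089, -0.0018 and 0.00088 over all genes. An unadjusted p below 0.05 was seen in 18, 17 and 15 of them, which is 5.61, 5.30 and 4.67%. Over all genes the share was 7.41, 8.58 and 4.42%. In a list of 45 long noncoding RNAs known by name, 38 were found by that name in the counts and 30 were tested. The median log2 difference of these was -0.02, 0.0048 and -0.07 in the same order, and 2810055G20Rik had the only call.

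**Figure D5:**
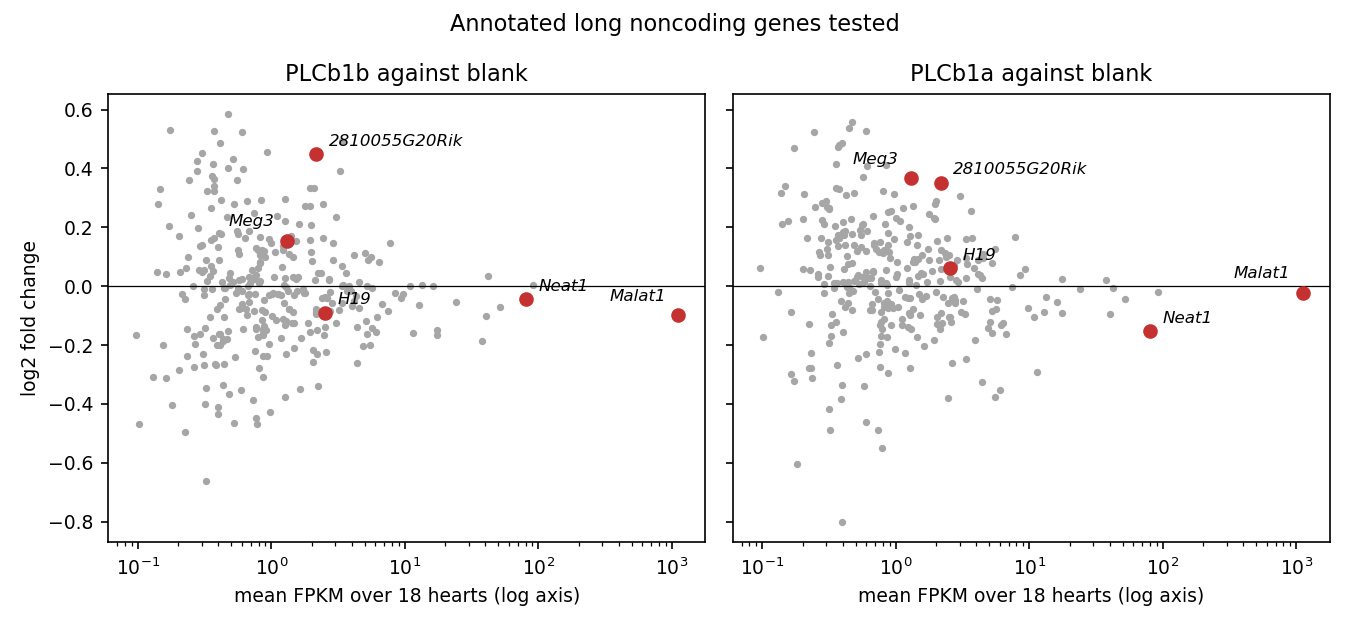
Log2 fold change against mean FPKM (log axis) of the annotated long noncoding genes tested, with the 5 tested genes of this report in red. Low genes spread widely around 0, and 2810055G20Rik lies near the upper edge for its level in both contrasts.

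Genes related by pathway were examined from lists. Over all genes 0.0977% were called between PLCb1b and blank hearts and 0.138% between PLCb1a and blank hearts. Lists this short would seldom hold a call at such shares, so nothing is read from the lack of one. In the imprinted cluster of Meg3, 2 of 7 genes were tested and 0 called. Rian, the next noncoding RNA along that cluster, had a log2 difference of -0.16 between PLCb1b and blank hearts (standard error 0.13, FDR 0.842). A list of 15 genes joined H19 and its neighbours with imprinted growth genes from other chromosomes and loci. Of these 12 were tested and 0 called, with Igf2, the fetal growth factor beside H19, at 0.09 (FDR 0.891) and Mest, with the lowest p, at 0.44 (standard error 0.16, FDR 0.519). The median was 0.05 between PLCb1b and blank hearts.

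Proteins of the nuclear bodies in which Malat1 and Neat1 are found showed no call either. With 0.0977% of all genes called between PLCb1b and blank hearts and 0.138% between PLCb1a and blank hearts, nothing is read from that. All 14 paraspeckle proteins were tested, with a median log2 difference of -0.0074 between PLCb1b and blank hearts and 0.05 between PLCb1a and blank hearts. Tardbp, an RNA-binding protein, had the lowest p among them, at -0.11 (standard error 0.05, FDR 0.605) between PLCb1b and blank hearts. Of 17 nuclear speckle proteins 16 were found by name in the counts and tested, with medians of -0.0074 and 0.03. The splicing factor Srsf4 had the lowest p between PLCb1b and blank hearts, at -0.17 (standard error 0.08, FDR 0.648). Of 15 genes of microRNA processing, Ago1, Ago2, Ago3 and Ago4 were not found by name in the counts, which does not show absence. Of the 11 found 9 were tested, with medians of 0.02 and 0.04. Among these Zcchc11, which adds uridine to let-7 precursors, stood at 0.22 (standard error 0.06, FDR 0.186) between PLCb1b and blank hearts and 0.18 (FDR 0.288) between PLCb1a and blank hearts.

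Genes beside the 6 on the chromosomes were not called in any contrast, where at most 0.138% of all genes were called. Usp25, the nearest tested gene before 2810055G20Rik and 212548 bases from it, had a log2 difference of 0.01 between PLCb1b and blank hearts (standard error 0.04). E330011O21Rik, on the other side, had 0.16 (standard error 0.18). Mn1, beside Miat, had -0.23 between PLCb1a and blank hearts (FDR 0.461).

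Markers of other cell types were read beside 2810055G20Rik. Over all genes 0.0977% were called between PLCb1b and blank hearts and 0.138% between PLCb1a and blank hearts. Nothing about cell types is therefore read from 0 calls in lists this short. Of 8 fibroblast markers 0 were called, and their summed level was 415 to 477 CPM in blank hearts, 430 to 493 in PLCb1a hearts and 445 to 493 in PLCb1b hearts. Their median log2 difference was 0.11 between PLCb1b and blank hearts (from -0.14 to 0.23) and 0.06 between PLCb1a and blank hearts. Over all genes these medians were -0.00089 and -0.0018. Lum, a collagen-binding protein, stood at 0.23 (standard error 0.06, FDR 0.235) in the first contrast and 0.23 (FDR 0.256) in the second. Of 8 endothelial markers 0 were called, with sums of 359 to 432, 367 to 401 and 369 to 413 CPM. Summed mural markers, of smooth muscle and pericytes, ran from 243 to 272, 229 to 266 and 251 to 269 CPM, and those of macrophages from 76.8 to 95.1, 75.9 to 93.2 and 74.5 to 102 CPM, again with 0 called. Cardiomyocyte markers summed to 18071 to 19748, 17988 to 19467 and 17988 to 19253 CPM. Their part in the level of 2810055G20Rik was not tested.

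Markers of rarer cells and atrial markers gave lower sums. Schwann and nerve markers ran from 3.74 to 6.17, 3.35 to 4.64 and 4.46 to 6.04 CPM, and adipocyte markers from 0.344 to 1.40, 0.817 to 4.11 and 0.272 to 1.55 CPM. Atrial markers ran from 36.7 to 53.5, 24.2 to 61.0 and 31.6 to 48.9 CPM. Sln had the lowest p of the atrial markers, at -0.62 (standard error 0.35, FDR 0.748) between PLCb1b and blank hearts. Between PLCb1b and PLCb1a hearts Sln stood at -0.89 (standard error 0.34). Cfd, the adipocyte marker tested, stood at 0.97 (standard error 0.54, FDR 0.653) between PLCb1a and blank hearts. Between PLCb1b and PLCb1a hearts Cfd stood at -1.19 (standard error 0.55). Alas2, the heme synthesis enzyme of red cells, averaged 5.46 FPKM in blank, 8.41 in PLCb1a and 6.31 in PLCb1b hearts (FDR 0.364 for PLCb1a against blank), and Hba-a1, an alpha globin gene, 157, 201 and 167 FPKM. The count table lists Hba-a1 and its near-identical copy Hba-a2 at 0 in all hearts, zeros that the FPKM table shows are not absence. The filter left 2 of 5 Schwann and nerve, 1 of 5 adipocyte and 4 of 5 atrial markers to test. Of 5 red cell markers 3 were found by name in the counts and 1 was tested. Of all these markers 0 were called, beside at most 0.138% of all genes in a contrast.

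The genes were compared with each other over the 18 hearts, after the mean of each group was removed. Miat was too low to enter, so there were 10 pairs. The smallest adjusted p of r was 0.459 by a permutation test within groups (100000 resamples), and the smallest adjusted p of Spearman's rho was 0.692. The largest r was -0.42 for 2810055G20Rik and Neat1 (rho -0.34, permutation p 0.101). It was -0.08 without blank heart 30 and PLCb1a heart 13, so it rested on those hearts. Within groups r was -0.55 in blank, -0.94 in PLCb1a and 0.49 in PLCb1b hearts. Malat1 and Neat1, although neighbours, had r = -0.08 (rho -0.16).

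For each gene the tested genes with the most similar pattern over the same 18 hearts were listed, as a description. The values are the highest of 12280, which makes them high by choice. Those of 2810055G20Rik were Prdx4 (r = 0.84), Fos (0.84) and Gucy1b3 (0.82). Malat1 was most like Lyve1 (0.85), Beta-s (0.83) and St3gal5 (0.82), and Neat1 like Nlrc5 (0.88), Chd8 (0.80) and Bloc1s5 (0.80). For Meg3 they were Fbxo11 (0.83), Zcchc14 (0.80) and Pabpc1 (0.77), and for H19 Angpt2 (0.89), Rapgef3 (0.86) and Mcc (0.85). No gene appeared in the lists of 2 members.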

How the data were processed

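RNA of 18 ventricles was sequenced after depletion of ribosomal RNA, as strand-specific paired reads. The authors aligned them to mm10 (TopHat2 2.0.10 in the submitters' processing notes) and counted genes with HTSeq in union mode. The deposited values are raw counts and FPKM. Cufflinks 2.1 is listed in those notes without a stated role. The quasi-likelihood test of edgeR 4.0.16 (glmQLFit with robust estimation, R 4.3.3) was run on TMM-scaled counts, in a single model of 3 groups. Genes passed filterByExpr with a minimum count of 10 and a minimum total of 15, with FDR below 0.1 as the threshold. Alternatives were DESeq2 1.42.0, edgeR's exact test, limma 3.58.1 on log2 FPKM with 0.1 or 1 added, other scalings and filters, and each heart left out. Annotated long noncoding genes have only noncoding transcripts and a spliced length of at least 200 bases. Named genes are the 6, the 3 most similar genes of each, called long noncoding genes, chromosomal neighbours and, from each list, called genes or the lowest p. Members and lists were chosen with earlier results of these data known. Programs were tested on simulated data. Hearts are separate mice.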

Additional observations from a re-analysis of the deposited data

Results flagged for a closer look

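In blank hearts, the lowest 2810055G20Rik level was 5.42 CPM in heart 30, with 6.83 CPM as the nearest value. Its gap to the others was 0.735 of the range of the group. For Meg3 in FPKM, the same heart was the highest at 1.48, with 1.19 as the nearest value and a gap of 0.630 of the range. Both gaps exceed Dixon's 95% critical value for 6 hearts. In all 30 groups were examined, and chance marks about 1 in 20.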

How the results depend on the processing

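No paired analysis was possible because the groups share no mouse numbers. Blank mice are numbered 26 to 36, above all PLCb1a mice (7 to 21) and PLCb1b mice (4 to 17). What the numbers follow is not stated. A difference in handling that went with them cannot be told apart from the blank vector. For 2810055G20Rik between PLCb1b and blank hearts, limma on log2(FPKM + 0.1) gave 0.54 (FDR 0.411) and on log2(FPKM + 1) 0.38 (FDR 0.415), neither called, and the count of called long noncoding genes became 0. With each heart left out the difference ran from 0.39 to 0.48, and the count from 0 to 1. The call was lost without blank heart 34 or PLCb1b heart 4, 6 or 17. Between PLCb1a and blank hearts, 2810055G20Rik was called with DESeq2 (0.35, FDR 0.0968) and without the low-count filter (0.35, FDR 0.0684), which made the count 1. It was smaller with limma on log2(FPKM + 0.1) (0.30, FDR 0.697) and on log2(FPKM + 1) (0.21, FDR 0.705), as was Meg3 (0.23, FDR 0.755, and 0.15, FDR 0.754). A larger constant gives a smaller change for low genes, and its part in these smaller values was not tested. With each heart left out 2810055G20Rik ran from 0.29 to 0.40, called only without PLCb1a heart 13 (FDR 0.0793), with counts from 0 to 1. H19 ran from -0.21 to 0.10 between PLCb1b and blank hearts and from -0.055 to 0.25 between PLCb1a and blank hearts, with a changed sign without blank heart 30 in the first and without blank heart 34 or 36 or PLCb1a heart 9 in the second. The cause was not tested. On log2(FPKM + 0.1), r changed sign to 0.29 for 2810055G20Rik and Malat1, 0.33 for Malat1 and Neat1, 0.042 for Neat1 and Meg3 and 0.32 for Meg3 and H19. The other 502 values for the contrasts and 16 for the correlations kept their direction and side of the threshold. The fit without robust estimation was chosen after seeing the data. DESeq2 gave no adjusted p for Meg3 and H19 between PLCb1a and blank hearts. At 56 to 154 counts a heart, Meg3 has the least depth of the members tested.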
